A study of Homo sapiens with 6 samples.

Results

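The genes described are 10 of the structural maintenance of chromosomes (SMC) machinery, taken by gene name from the 58735 genes listed in the expression table. They are SMCHD1, the 6 canonical SMC genes SMC1A, SMC2, SMC3, SMC4, SMC5 and SMC6, and 3 partner subunits, RAD21 of cohesin and NCAPH and NCAPG of condensin. RNA-seq was performed on HCT116, a human colorectal carcinoma cell line of wild-type genotype, in 3 control-transfected libraries (CTR) and 3 libraries (miR-8485) of cells given a synthetic form of the mature miRNA, miR-8485 mimics, at 50 nM with the DMRIE-C reagent. The mimic-transfected cells were collected after 48 h, and the libraries of each group came from independent biological replicates. The sequence and dose of the control transfection are not given in the sources used here, mature miRNA is not counted in such libraries, and the design holds 1 cell line and a transient transfection. All values were fragments normalized to gene length and to the library total (FPKM). Levels compared between genes rest on the listed gene lengths, which were not checked against the transcripts expressed. The libraries held 17473874 to 18480047 fragments on listed genes.

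SMC proteins are long coiled-coil ATPases that work as pairs. Each pair is closed into a ring by a kleisin subunit, and in cohesin and condensin it is helped by large repeat proteins that hold DNA. Cohesin (SMC1A with SMC3) keeps sister chromatids together and forms chromatin loops, condensin (SMC2 with SMC4) compacts mitotic chromosomes, and the SMC5/6 complex acts in DNA repair and replication. SMCHD1 is the unusual member of the family. It has an SMC hinge but a different ATPase domain, pairs with itself, and silences the inactive X chromosome, some imprinted loci, the protocadherin clusters and the DUX4 repeats. Cohesin and condensin serve dividing cells, and many of their genes follow the cell cycle.

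A miRNA pairs with mRNA mostly through its seed, bases 2 to 8, which in miR-8485 is ACACACA. Its perfect match, TGTGTGT in DNA letters, was searched in the 3′ UTR of the canonical transcript of each gene (GENCODE release 44, GRCh38, the build hg38 used for the files). The match was present in 3 of the 10 genes, and all of their runs are shown because they separate SMCHD1, SMC1A and SMC5 from the other 7. Capitals mark the run of matches and lower case the 3 bases on each side, in the direction of the mRNA.
SMCHD1, chr18:2803178-2803202, plus strand: tccTGTGTGTGTGTGTGTGTGTata
SMC1A, chrX:53379780-53379794, minus strand: cacTGTGTGTGTggg
SMC1A, chrX:53379764-53379776, minus strand: gtaTGTGTGTatg
SMC1A, chrX:53378481-53378493, minus strand: tatTGTGTGTtta
SMC5, chr9:70354793-70354805, plus strand: tatTGTGTGTgct
SMC5, chr9:70354803-70354819, plus strand: gctTGTGTGTGTGTaat

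In SMCHD1 the run was 19 bases long, held 7 overlapping copies and began at base 629 of a 3′ UTR of 2465 bases. SMC1A held 4 copies in 5954 bases, in 3 runs that began at bases 312, 330 and 1613. The 4 copies of SMC5 lay in the last part of its 3′ UTR, with runs at bases 2465 and 2475 of 2542. No copy was found in SMC2, SMC3, SMC4, SMC6, RAD21, NCAPH or NCAPG, whose 3′ UTRs were 1144 to 3740 bases long. Of the 10665 protein-coding genes tested that have a canonical 3′ UTR, 3081 (28.9%) held at least 1 copy, so that 3 of 10 is close to the share over all of them. A match is a description of the letters and not a measured binding site.

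**Figure D1:**
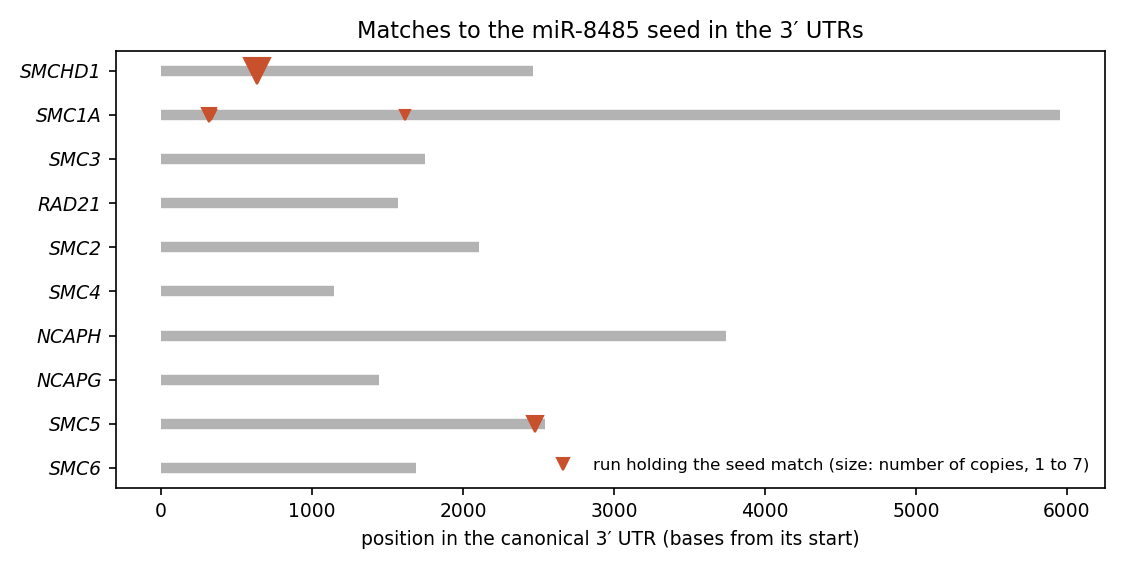
Position of the seed matches of miR-8485 (triangles, larger with more copies) along the canonical 3′ UTR of each gene (grey bar, in bases from its start). SMCHD1 has 1 run with 7 copies, the runs of SMC1A at bases 312 and 330 and those of SMC5 at bases 2465 and 2475 overlap at this scale, and the other 7 genes have none.

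With miR-8485, 9 of the 10 genes were downregulated and 0 were upregulated, in limma at an adjusted p under 0.05, fitted across the 12349 genes whose FPKM averaged 1 or more, all 10 included. At an unadjusted p under 0.05 and in voom on recovered fragments the counts were again 9 and 0. Over all genes tested, 30.5% were called lower and 29.1% higher. The exception was SMC6. The median log2 fold change of the 10 genes was -0.89, against -0.0041 over all genes tested, and in 9 of 10 all 3 miR-8485 libraries lay below all 3 CTR libraries, an order that 34.0% of all tested genes showed. FPKM are shares of a library. Rescaling to TPM moved the median of all genes to -0.1165, with 38.2% called lower and 21.2% higher, and again called 9 of the 10 genes lower. In bulk RNA, fewer cells in a state that expresses a gene and less RNA of that gene per cell cannot be told apart.

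**Figure D2:**
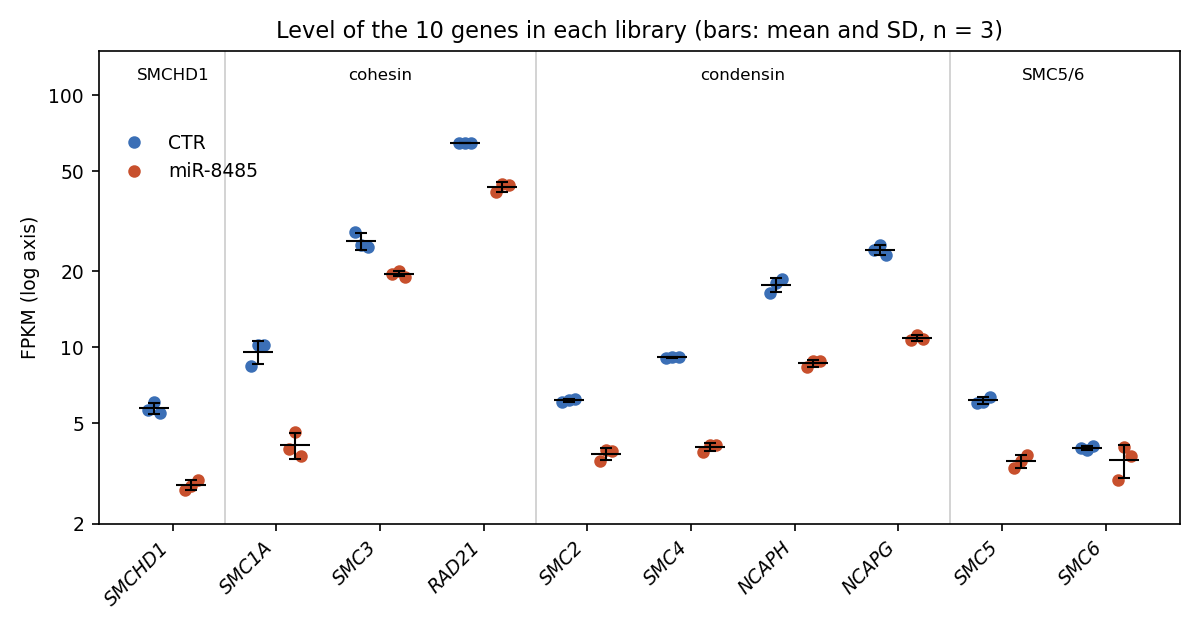
FPKM of each gene (log axis) in the 3 CTR and 3 miR-8485 libraries as points, with the mean and SD as bars, ordered by complex. The groups are separate for every gene but SMC6, where the miR-8485 libraries at 2.98, 4.02 and 3.70 FPKM reach into the CTR range of 3.93 to 4.06.

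SMCHD1 (chr18:2655738-2805017, plus strand) stood at 5.65, 6.08 and 5.49 FPKM in CTR and at 2.73, 2.81 and 2.99 FPKM with miR-8485. All 3 miR-8485 libraries were thus below the lowest CTR library. The means were 5.74 ± 0.307 FPKM and 2.84 ± 0.137 FPKM (SD, n = 3 each), so that 49.5% of the CTR level was left, for a log2 fold change of -0.99 (SE 0.07, 95% interval -1.15 to -0.82, adjusted p = 2.7e-05 in limma). Behind these values were 1235 to 1368 fragments in CTR and 609 to 709 with miR-8485. The change was lower than that of all but 4.93% of the genes tested. LRIF1, a protein that binds SMCHD1 and helps bring it to chromatin, stood at 6.41 ± 0.251 FPKM in CTR and 7.43 ± 0.633 FPKM with miR-8485, a log2 fold change of 0.21 (adjusted p = 0.0431). This call of LRIF1 was lost after rescaling to TPM (0.09, adjusted p = 0.352), with all genes above 0 tested (adjusted p = 0.102), without a variance trend (adjusted p = 0.06) and in 5 of 6 fits that left out a library (adjusted p of 0.0664 to 0.132).

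In the cohesin ring, the pair changed unequally. SMC1A (chrX:53374149-53422728, minus strand) fell from 8.43, 10.2 and 10.2 FPKM in CTR to 3.95, 4.64 and 3.71 FPKM, and SMC3 (chr10:110567691-110604636, plus strand) from 28.8, 25.4 and 24.9 FPKM to 19.6, 20 and 19.1 FPKM. SMC1A thereby kept 42.7% of its CTR level (log2 fold change -1.21, SE 0.11, adjusted p = 7e-05) and SMC3 kept 74.1% (-0.43, SE 0.06, adjusted p = 0.00084), the smallest fall among the 9 that were called. SMC1A had the largest fall of the 10 here, but NCAPG fell further with a pseudocount of 1, with the gene length trend removed and without CTR replicate 3, and SMC4 without miR-8485 replicate 3. The difference between SMC1A and SMC4 was -0.05 (95% interval -0.33 to 0.23, adjusted p = 0.708). The fall of SMC1A was the larger, with a log2 difference of -0.78 from SMC3 (95% interval -1.07 to -0.49, adjusted p = 0.00107). There were 0.293, 0.4 and 0.41 of SMC1A per SMC3 in the CTR libraries and 0.201, 0.232 and 0.195 with miR-8485. Both groups of libraries had less SMC1A than SMC3 in FPKM, at listed lengths of 10484 and 4275 bases. The ratio was lower in each miR-8485 library than in any CTR library.

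RAD21 (chr8:116845935-116874866, minus strand), the kleisin that separase cuts at anaphase, was the most abundant of the 10 at 64.6, 64.9 and 64.4 FPKM in CTR and 41.2, 44.5 and 44.2 FPKM with miR-8485. Its log2 fold change of -0.58 (SE 0.04, adjusted p = 3.6e-05) did not differ past the threshold from that of SMC3 (difference -0.15, 95% interval -0.33 to 0.03, adjusted p = 0.116). The alternative subunits STAG1 and STAG2, which hold the ring on DNA, parted. STAG1 fell from 2.84 ± 0.00813 to 1.81 ± 0.0786 FPKM (log2 fold change -0.62, adjusted p = 0.00057), whereas STAG2, the more abundant, stood at 10.2 ± 0.7 and 10.7 ± 0.72 FPKM (0.07, adjusted p = 0.414, and -0.04 after rescaling to TPM). STAG2 differed from SMC3 by 0.5 on the log2 scale (95% interval 0.28 to 0.72, adjusted p = 0.00264). Altogether 4 of the 5 ring genes fell.

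Condensin I and II share SMC2 and SMC4, and here too the pair changed unequally. SMC4 (chr3:160399274-160434962, plus strand) fell from 9.08, 9.14 and 9.15 FPKM to 3.86, 4.11 and 4.10 FPKM (log2 fold change -1.16, SE 0.05, adjusted p = 4.9e-06). SMC2 (chr9:104094260-104141417, plus strand) fell from 6.05, 6.21 and 6.23 FPKM to 3.53, 3.93 and 3.90 FPKM (-0.69, SE 0.06, adjusted p = 8.8e-05). The groups did not overlap for either gene, and the fall of SMC2 was smaller by 0.47 (95% interval 0.28 to 0.67, adjusted p = 0.00076). SMC2 per SMC4 was accordingly 0.667, 0.679 and 0.680 in CTR but 0.913, 0.956 and 0.951 with miR-8485, so the partners came closer to equal in FPKM.

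NCAPH (chr2:96335787-96373845, plus strand), the kleisin of condensin I, stood at 16.5, 18.0 and 18.6 FPKM in CTR and 8.34, 8.82 and 8.83 FPKM with miR-8485 (log2 fold change -1.02, SE 0.06, adjusted p = 1.1e-05). NCAPG (chr4:17810902-17844862, plus strand), a repeat subunit of condensin I, stood at 24.3, 25.4 and 23.2 FPKM and then 10.7, 11.2 and 10.8 FPKM (-1.15, SE 0.05, adjusted p = 4.2e-06). Neither differed past the threshold from SMC4, by 0.14 for NCAPH (95% interval -0.04 to 0.32, adjusted p = 0.122) and 0.02 for NCAPG (95% interval -0.16 to 0.19, adjusted p = 0.838). These 3 condensin genes fell to between 44.1% and 49.0% of CTR. The remaining subunit of condensin I, NCAPD2, the other repeat protein and the most abundant at 34.9 ± 1.8 FPKM, stood at 33.2 ± 1.08 FPKM with miR-8485 (log2 fold change -0.07, adjusted p = 0.272, and -0.19 with adjusted p = 0.0223 after rescaling to TPM). It differed from SMC4 by 1.09 (adjusted p = 3.6e-06). All 5 subunits of condensin II fell. Besides the shared pair these were NCAPG2, from 14.2 ± 0.318 to 6.9 ± 0.518 FPKM (-1.03, adjusted p = 1.4e-05), its kleisin NCAPH2, from 24.8 ± 1.25 to 16.3 ± 1.6 FPKM (-0.6, adjusted p = 0.00047), and NCAPD3, from 9.52 ± 0.417 to 7.11 ± 0.251 FPKM (-0.41, adjusted p = 0.00055).

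**Figure D3:**
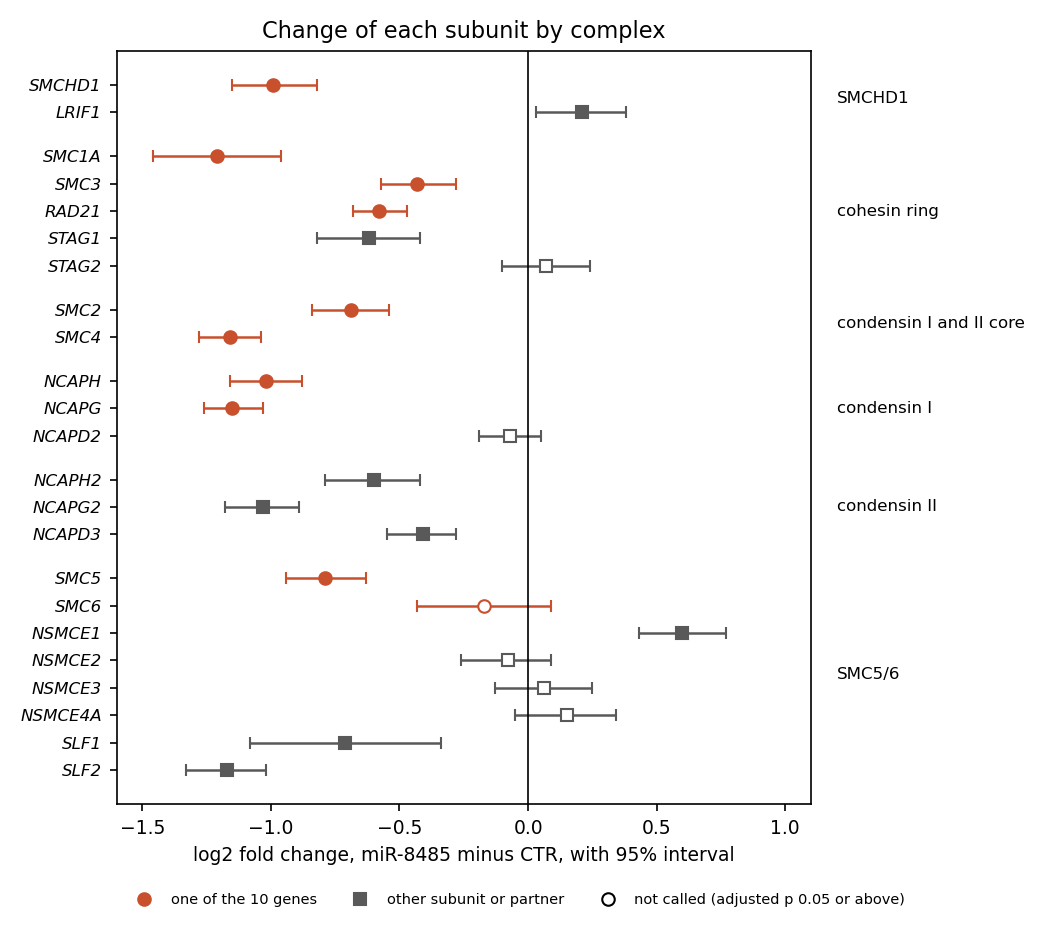
Log2 fold change (miR-8485 minus CTR) with its 95% interval for the 10 genes (circles) and for other subunits or partners (squares), by complex, with open symbols where the adjusted p was 0.05 or above. SMC4, NCAPH and NCAPG lie between -1.16 and -1.02, whereas NCAPD2, STAG2 and SMC6 lie near 0 and NSMCE1 lies above it at 0.60.

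In the SMC5/6 pair the partners also differed. SMC5 (chr9:70258962-70354888, plus strand) fell from 6.03, 6.09 and 6.37 FPKM in CTR to 3.34, 3.53 and 3.74 FPKM (log2 fold change -0.79, SE 0.07, adjusted p = 5.2e-05). SMC6 (chr2:17663812-17800242, minus strand) stood at 4.0, 3.93 and 4.06 FPKM in CTR and at 2.98, 4.02 and 3.70 FPKM with miR-8485, so that 1 library was below the others and the groups overlapped. Its log2 fold change was -0.17 (SE 0.11, 95% interval -0.43 to 0.09, adjusted p = 0.215), and ranged from -0.05 without miR-8485 replicate 1 (adjusted p = 0.608) to -0.26 without miR-8485 replicate 2 (adjusted p = 0.0803). SMC5 fell further than SMC6, with a log2 difference of -0.61 (95% interval -0.91 to -0.31, adjusted p = 0.00917). SMC5 per SMC6 was 1.51, 1.55 and 1.57 in CTR and 1.12, 0.878 and 1.01 with miR-8485.

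NSMCE1, a RING-finger subunit, rose from 10.8 ± 0.314 to 16.5 ± 1.63 FPKM (log2 fold change 0.6, adjusted p = 0.00035, and 0.49 after rescaling to TPM), and differed from SMC6 by 0.77 (adjusted p = 0.00462). The SUMO ligase NSMCE2, with a log2 fold change of -0.08, NSMCE3, with 0.06, and the kleisin NSMCE4A, with 0.15, were not called (adjusted p of 0.161 to 0.582). SLF1 and SLF2, which bring the complex to damaged DNA, fell, SLF2 from 5.67 ± 0.135 to 2.46 ± 0.114 FPKM (-1.17, adjusted p = 1.1e-05) and SLF1 from 1.85 ± 0.166 to 1.1 ± 0.163 FPKM (-0.71, adjusted p = 0.00624). In all, 3 of the 8 tested genes of the complex fell and 1 rose, shares near those over all genes tested (30.5% and 29.1%) for the falls and below them for the rise, and EID3 was below the filter.

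**Figure D4:**
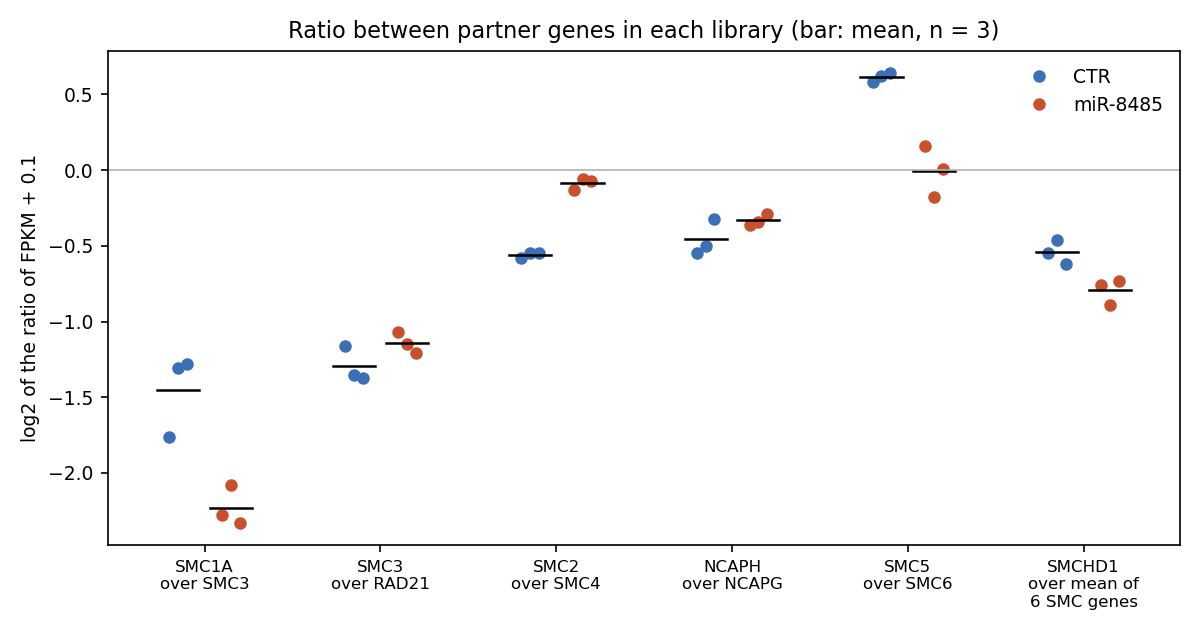
Log2 of the ratio of FPKM + 0.1 between partner genes in each library, with a bar at the mean of each group. The SMC1A to SMC3, SMC2 to SMC4 and SMC5 to SMC6 ratios separate the groups, the SMC3 to RAD21 and NCAPH to NCAPG ratios overlap, and SMCHD1 over the mean of the 6 SMC genes is -0.62 to -0.46 in CTR and -0.89 to -0.73 with miR-8485.

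Set against the canonical genes, the fall of SMCHD1 lay among the larger ones. The mean log2 ratio of SMCHD1 to the 6 SMC genes was -0.54 in CTR and -0.79 with miR-8485, a difference of -0.25 against an SD within groups of 0.08, with no overlap. Gene by gene, 4 of the other 9 genes differed from SMCHD1 in their log2 fold change, where 90.7% of all genes tested did. The falls were smaller by 0.82 for SMC6 (95% interval 0.51 to 1.12, adjusted p = 0.0005), 0.56 for SMC3 (0.34 to 0.78, adjusted p = 0.00067), 0.41 for RAD21 (0.22 to 0.61, adjusted p = 0.00184) and 0.3 for SMC2 (0.08 to 0.52, adjusted p = 0.0175). The difference of SMC2 was not called without CTR replicate 2 or without miR-8485 replicate 2, where 3 genes remained. The differences of NCAPH (-0.03, 95% interval -0.25 to 0.18), NCAPG (-0.16, -0.36 to 0.05), SMC4 (-0.17, -0.38 to 0.03), SMC5 (0.2, -0.02 to 0.43) and SMC1A (-0.22, -0.52 to 0.08) did not pass. With the other genes as reference, 7 of 9 differed from SMC3 (68.6% of all genes), 5 of 9 from SMC4 (93.7% of all genes) and 8 of 9 from SMC6 (39.4% of all genes). In order of size, the log2 fold changes ran from -1.21 in SMC1A through SMC4, NCAPG, NCAPH and SMCHD1 to SMC5, SMC2, RAD21, SMC3 and, at -0.17, SMC6.

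The order of levels also shifted. In CTR, RAD21 was highest, followed by SMC3 at 26.4 ± 2.11, NCAPG at 24.3 ± 1.11, NCAPH at 17.7 ± 1.04, SMC1A at 9.6 ± 1.02 and SMC4 at 9.12 ± 0.0423 FPKM. SMC5 and SMC2 (6.16 FPKM each), SMCHD1 and SMC6 closed the order. The ranges of SMC3 and NCAPG, of SMC1A and SMC4, and of SMC5, SMC2 and SMCHD1 overlapped among the CTR libraries. The order rests on the listed gene lengths, and that of NCAPH, 3278 bases, is shorter than its canonical 3′ UTR alone (3740 bases). SMCHD1 was above SMC6 within each CTR library, by 0.43 to 0.62 on the log2 scale, and below it within each miR-8485 library, at a log2 ratio of -0.51 to -0.12.

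The regulators of cohesin fell in 8 of 12 tested genes and rose in 0 (median -0.52), against 30.5% and 29.1% of all genes tested. With the gene length trend removed, 8 were called lower and 1 higher. The strongest was ESCO2, the acetyltransferase that locks cohesin on replicated DNA, from 4.01, 3.52 and 4.71 FPKM to 0.517, 0.478 and 0.579 FPKM. Its log2 fold change of -2.74 (SE 0.15, adjusted p = 1e-05) exceeded in size those of all 10 genes, and 12.9% of its CTR level was left. CDCA5 (sororin, -0.89, adjusted p = 9.9e-06) and SGO1 (shugoshin, -0.83, adjusted p = 0.0018), which protect cohesion, also fell, as did PTTG1 (securin, -0.84), ESPL1 (separase, -0.75), PDS5A (-0.56), the boundary factor CTCF (-0.47) and the release factor WAPL (-0.31). The loader NIPBL (-0.12, adjusted p = 0.168) and its partner MAU2 (0.11, adjusted p = 0.231), PDS5B (-0.17) and the other acetyltransferase ESCO1 (-0.18, adjusted p = 0.0601) were not called, although NIPBL and ESCO1 were called lower after rescaling to TPM (adjusted p = 0.0324 and 0.0175), and ESCO1 without CTR replicate 2 (-0.24, adjusted p = 0.0215). Of the 4 meiotic cohesin genes, REC8 alone passed the filter, at 1.49 ± 0.0813 and 1.62 ± 0.254 FPKM (0.11, adjusted p = 0.566). In the related RAD50 complex of DNA repair, MRE11 rose from 1.8 ± 0.244 to 3.86 ± 0.345 FPKM (1.06, adjusted p = 0.00024), NBN fell (-0.38, adjusted p = 0.00122), and RAD50 was below the filter.

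Genes of the cell cycle moved in the same libraries. Of 20 genes of G2 and M phase, 19 fell and 0 rose, with a median of -0.87, led by the proliferation marker MKI67 (27.5 ± 2.27 to 6.25 ± 0.269 FPKM, log2 fold change -2.12, adjusted p = 2.2e-06) and the checkpoint kinase BUB1 (-1.24, adjusted p = 9.7e-06). BIRC5 was the exception (-0.09, adjusted p = 0.242), and after rescaling to TPM it was called lower too (-0.21, adjusted p = 0.0308). The summed FPKM of the list was 782 to 789 in CTR and 422 to 446 with miR-8485. Of 20 genes of G1 and S phase, 17 fell, led by RRM2 (-1.29, adjusted p = 2.4e-06) and CDC45 (-1.17, adjusted p = 2.8e-05), and 1 rose, the helicase subunit MCM7 (0.15, adjusted p = 0.0186, 0.04 with adjusted p = 0.46 after rescaling to TPM, and adjusted p = 0.0612 without miR-8485 replicate 1). Their median was -0.48. The part of cell cycle phase in the falls of the 10 genes was not tested.

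**Figure D5:**
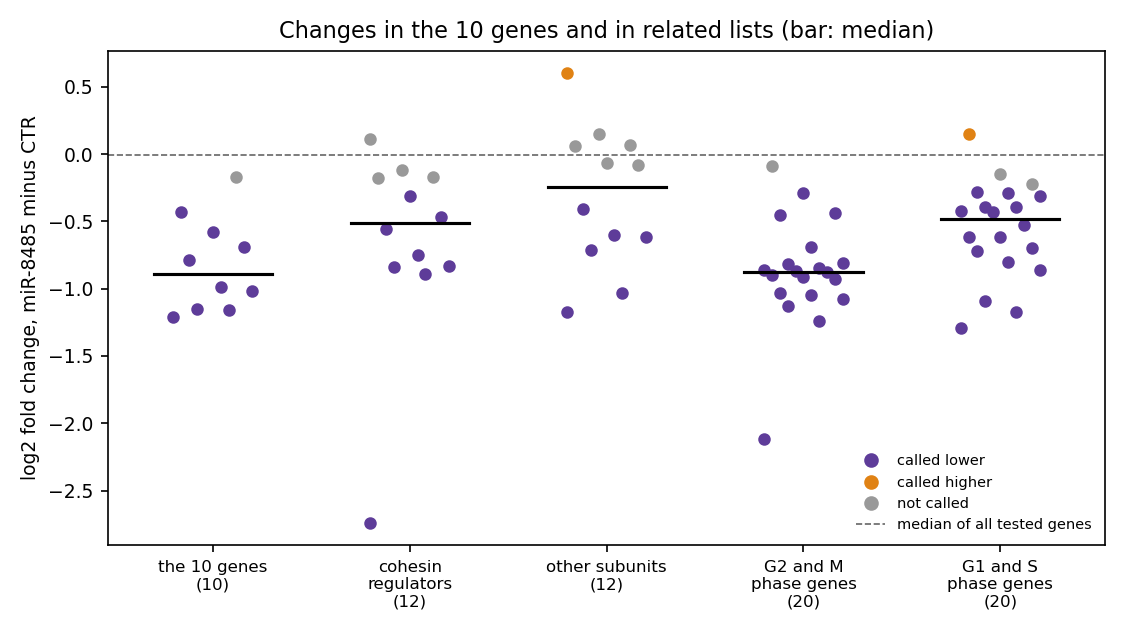
Log2 fold change (miR-8485 minus CTR) of the 10 genes, of 12 cohesin regulators, of 12 other subunits of the same complexes and of 20 genes each of G2 and M and of G1 and S phase, coloured by call, with bars at the medians and a dashed line at the median of all genes tested. The medians are -0.89, -0.52, -0.25, -0.87 and -0.48.

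Among promoters, which can hold the elements of cell cycle genes, RefSeq windows of 250 bases before to 50 after the start (GRCh38.p14) were at hand for 9 of the 10 genes, 12 windows in all. They were searched on both strands for TTTGAA, the core of the cell cycle homology region of late cell cycle genes, for CCAAT, and for TTTCCCGC and TTTGGCGC, forms of the E2F site. TTTGAA was found in 4 of the 12 windows, against 15.2% of 35116 promoters, namely in the windows of SMC3 and NCAPG and in 1 of 2 windows each of SMC2 and SMC4. CCAAT was found in NCAPH (34.6% of promoters) and an E2F form in 1 of 2 windows of SMC1A (2.3% of promoters). The letters of the SMCHD1, SMC5 and SMC6 windows held none of these. The window of SMC4 that holds it and the window of NCAPG, genes that fell by 1.16 and 1.15 on the log2 scale, are shown with TTTGAA or its reverse complement in capitals, on the plus strand.
SMC4, chr3:160399400-160399699: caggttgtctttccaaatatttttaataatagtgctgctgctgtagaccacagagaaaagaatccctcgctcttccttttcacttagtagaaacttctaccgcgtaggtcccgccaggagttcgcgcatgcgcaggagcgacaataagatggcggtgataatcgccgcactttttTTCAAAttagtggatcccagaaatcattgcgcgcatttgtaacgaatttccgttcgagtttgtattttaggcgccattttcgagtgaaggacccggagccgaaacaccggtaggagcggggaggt
NCAPG, chr4:17810729-17811028: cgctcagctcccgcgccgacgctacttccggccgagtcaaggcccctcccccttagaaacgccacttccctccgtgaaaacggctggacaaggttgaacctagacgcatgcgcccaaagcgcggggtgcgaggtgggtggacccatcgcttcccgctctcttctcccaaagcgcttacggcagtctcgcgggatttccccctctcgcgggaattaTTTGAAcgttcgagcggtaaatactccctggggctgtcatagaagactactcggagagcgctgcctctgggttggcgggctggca
Counted from the start, the element lay at -75 in SMC4, at -35 in NCAPG, at -3 in SMC2 and at -151 in SMC3, which fell by 0.43 on the log2 scale. The genes without TTTGAA in their windows had log2 fold changes of -1.21 (SMC1A), -1.02 (NCAPH), -0.99 (SMCHD1), -0.79 (SMC5) and -0.17 (SMC6). A link between these letters and the falls was not tested.

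For the seed matches shown at the outset, the 3 genes with a match fell (SMCHD1, SMC1A and SMC5, median -0.99), and so did 6 of the 7 without (median -0.69). Over all tested protein-coding genes, 44.6% of those with a match were called lower, with a median of -0.16, against 29.3% of those without, with a median of 0.02. These groups were not matched for 3′ UTR length. Among other subunits and regulators, 6 of 8 genes with a match fell (median -0.66), among them SLF2 with 18 copies and STAG1 with 2, and 8 of 17 without (median -0.18). The 2 genes with a match that were not called were MAU2 with 3 copies and NSMCE3 with 2. MRE11 of the RAD50 complex, left out of these counts, held 2 copies and was called higher (log2 fold change 1.06, adjusted p = 0.00024 in limma). STAG1 held its copies in the canonical 3′ UTR and 0 in its longest. In the pairs of cohesin and of SMC5/6, the partner that fell further was the one with a match. SMC2 and SMC4 parted too, and neither had one. The log2 fold changes with a match were -1.21 (SMC1A), -0.99 (SMCHD1) and -0.79 (SMC5). Without a match they ran from -1.16 in SMC4 to -0.17 in SMC6. The part of the seed matches in these falls was not tested.

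Known silencing targets of SMCHD1 were near or at the floor of detection. Of 59 such genes (54 protocadherin genes and 5 others), 0 reached a mean FPKM of 1. In every library 18 were listed at 0 (DUX4, NDN, MAGEL2 and SNRPN among them), which shows only that no fragment was counted. The highest was MKRN3, at 0.788 ± 0.0601 FPKM in CTR and 1.13 ± 0.165 FPKM with miR-8485 (log2 fold change 0.46, adjusted p = 0.126 with all 31768 genes above 0 tested in limma). Of the 41 above 0, 0 were called and 2 had an unadjusted p under 0.05, MKRN3 and PCDHB9, both higher, while the median was 0.04 and 24 were above 0 in sign. Most protocadherin genes of the alpha and of the gamma cluster share exons, which makes their counts uncertain. Those of the beta cluster do not overlap in position, but PCDHB9 held only 1 to 15 fragments per library.

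The genes with profiles most like SMCHD1 over the 6 libraries, by Euclidean distance on log2(FPKM + 0.1) less the CTR mean, were SRPX (distance 0.0594), MALT1 (0.0666), SEL1L (0.0833), MMD (0.0855) and IMPAD1 (0.0879). They fell by 0.98 to 1.01 on the log2 scale, close to SMCHD1 because they were chosen by profile. SRPX, SEL1L and MMD held no seed match in the canonical 3′ UTR, while MALT1 held 1 and IMPAD1 held 6. Of the other 9 genes the closest was NCAPH, at 0.183, which ranked 53 among all genes tested.

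Several of the 10 genes share exon bases with a gene on the opposite strand, and since the strand setting of the counting is not given in the sources used here, their reads cannot be told apart there. These were SMC4 with TRIM59 (1553 bases) and IFT80 (243), NCAPG with LCORL (1634), RAD21 with UTP23 (576) and RAD21-AS1 (271), SMC6 with GEN1 (107), SMCHD1 with AP001011.1 (49) and SMC1A with RIBC1 (39). From CTR to miR-8485, the mean level was 3.41 and 3.25 FPKM for TRIM59, 1.81 and 0.816 FPKM for IFT80, 1.29 and 0.842 FPKM for LCORL, 6.69 and 6.41 FPKM for UTP23 and 2.08 and 1.19 FPKM for GEN1. RAD21-AS1, AP001011.1 and RIBC1 were each below 0.2 FPKM in both groups. As to the cells, the 6 markers of colorectal epithelium all passed the filter. EPCAM stood at 135 ± 11.7 FPKM in CTR and 130 ± 3.48 FPKM with miR-8485 (adjusted p = 0.55), and CDH1 at 19.7 ± 0.694 and 19.0 ± 0.297 FPKM (adjusted p = 0.378). The keratins fell, KRT18 from 572 to 292 FPKM (log2 fold change -0.97), KRT8 from 848 to 552 FPKM (-0.62) and KRT19 by 0.58 on the log2 scale, while CDX2, a transcription factor of the intestine, rose from 16.0 ± 0.486 to 28.2 ± 1.18 FPKM (0.81, adjusted p = 1.4e-05). Thus 3 of the 6 were called lower and 1 higher. After rescaling to TPM and after quantile normalization, 4 were called lower and 1 higher. Of 8 markers of immune, endothelial and fibroblast cells, CD3E and DCN were at 0 in every library and COL1A1 alone passed the filter, at 4.25 ± 0.173 FPKM in CTR and 6.31 ± 0.077 FPKM with miR-8485, with summed levels of 4.4 to 4.61 and 6.49 to 6.56 FPKM.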

How the data were processed

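The 6 RNA-seq libraries were grouped by their labels, and 0 columns of measurements lacked a sample. The authors deposited FPKM values. These were made from paired-end reads trimmed by fastp, aligned by HISAT2 2.0.5 (hg38) and counted per gene by featureCounts 1.5.0-p3. Fragments were recovered from these values and gene lengths (100% whole within 0.1). Genes whose FPKM averaged 1 or more were tested two-sided on log2(FPKM + 0.1) with limma 3.58.1 (R 4.3.3), a variance trend in eBayes and Benjamini-Hochberg adjustment, after the script was tested on simulated data. Fold changes on this scale slightly understate those of low genes. The 10 genes, the gene lists and the tests were chosen with earlier results of these data known. The genes named were the 10, those of the lists and the 5 tested protein-coding genes nearest in profile to SMCHD1. The differences between fold changes, their count under each alternative and the count at an unadjusted p were chosen after seeing the data. The differences took both moderated standard errors as independent and were adjusted over all genes. Intervals are at 95%. Replicates differed by more than counting error, with a chi-square per gene of 2.75 to 10.5 within groups and 61 to 70.3 between them. Within groups, CTR replicate 1 stood furthest apart, at 10.52 from replicate 2 and 8.459 from replicate 3. The other pairs within groups were at 2.75 to 3.87. Overlaps of exons were checked in GENCODE release 44. The seed was read from the sequence that the study gives for the mimic, which was not compared with a reference sequence of mature miR-8485. The other experiments of the study were not analysed here.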

Additional observations from a re-analysis of the deposited data

How the results depend on the processing

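The 9 genes called lower were called under each alternative that tested them, and SMC6 under none. The alternatives were pseudocounts of 1 and 0.01, no filter, a mean FPKM of at least 5, rescaling to TPM, median-of-ratios scaling, quantile normalization, removal of the gene length trend, no variance trend, voom, and each library left out. At a mean FPKM of at least 5, SMCHD1, SMC2, SMC5 and SMC6 were not tested and 6 of 6 genes were called. The log2 fold change of SMCHD1 ranged from -1.10 to -0.81 and that of SMC6 from -0.28 to -0.04 (adjusted p of 0.0759 to 0.752). SMCHD1 minus the mean of the 6 SMC genes moved from -0.25 to -0.17 with a pseudocount of 1, which shrinks low genes more. It was -0.19 with the gene length trend removed and -0.29 to -0.20 with a library left out. The count of genes that differed from SMCHD1 was 6 of 9 with a pseudocount of 1 and with the length trend removed, adding SMC4 and NCAPG, and 3 to 4 with a library left out.

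Same-numbered libraries did not deviate together (correlations of 0.0668, 0.0335 and -0.064), so the numbers were not taken as pairs. With a replicate block, 9 genes were called lower, 4 differed from SMCHD1, and the log2 fold change of SMCHD1 was -0.99 (adjusted p = 0.0003). Of the related genes followed, ESCO1 became called with the replicate block (-0.18, adjusted p = 0.0351). The depth of 398 to 7267 fragments per gene and library limits the low genes most.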
